A study of Rattus norvegicus with 12 samples.

Results

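The microRNA genes Mir192, Mir194-1 and Mir194-2 were followed in rat liver across caffeine, dextromethorphan, their combination and vehicle. They were taken by gene name from the deposited table, so the members are 3 of its 444 listed features, and all 3 were among the 293 features tested. The animals were outbred Sprague-Dawley rats, all male and 7 weeks old at the first dose. Caffeine, an adenosine receptor antagonist, was given by mouth at 120 mg/kg (CAF). Dextromethorphan, a cough suppressant that acts on glutamate and sigma receptors, was given by mouth at 100 mg/kg as the hydrobromide monohydrate (DEX). A combination group received both drugs at those doses (CAF+DEX), and the vehicle group received sterile distilled water (Control). Dosing lasted 5 days, and liver was taken 1 h after the last dose. Each group had 5 rats, and 3 libraries per group are analysed here, 12 in all. Since no label links a library with a particular animal, p-values measure only the spread between these samples, which may in part be technical.

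MicroRNAs are cut from hairpin precursors and pair with messenger RNAs mainly through the seed, bases 2 to 8 of the mature strand, which lowers the stability or translation of the target. The genes for miR-192 and miR-194 lie side by side and are transcribed together, and a second copy of miR-194 lies beside miR-215, a relative of miR-192. Both families are abundant in hepatocytes and in gut and kidney epithelium, where hepatocyte nuclear factors maintain them, and p53 induces them in some human cell types. In liver, miR-192 is also known as a marker that leaks into blood when hepatocytes are damaged.

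The deposited positions on rat build rn7 placed Mir194-2 (ENSRNOG00000035588) at chr1:203564761-203564845 and Mir192 (ENSRNOG00000035530) at chr1:203564946-203565055, both on the plus strand. They were 100 bases apart. Mir194-1 (ENSRNOG00000035482) lay at chr13:96851166-96851248, plus strand, and its nearest listed neighbour, Mir664-2, was 58.0 kb away. In the RefSeq annotation of another build, GRCr8, Mir194-1 lies within the bounds of Iars2, a protein-coding gene for a mitochondrial isoleucyl-tRNA synthetase, and no RefSeq gene spans Mir192 or Mir194-2. The strand of Iars2 was not compared, so its bounds do not show that it transcribes Mir194-1. Exons, introns and UTRs were not analysed here. On GRCr8, Mir215 (chr13:99382990-99383086) follows Mir194-1 (chr13:99382716-99382798) on the plus strand. Mir215 is not analysed here as a feature.

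The mature strands are shown because they decide which reads belong to which member. Sequences are from RefSeq (GRCr8), 5′ to 3′, and capitals mark the seed.
miR-192-5p: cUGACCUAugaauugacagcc
miR-215: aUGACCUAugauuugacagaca
miR-192-3p: cUGCCAGUuccauaggucacag
miR-194-5p: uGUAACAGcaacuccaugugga
miR-194-3p: cCAGUGGGgcugcuguuaucu
miR-192-5p and miR-215 shared the seed UGACCUA, which 2 rat mature names held. Over 21 positions counted from 1 at the 5′ end, with the base of miR-192-5p first, they differed by C1A, A12U and C20A. The seed of miR-194-5p, GUAACAG, was held by 1 rat mature name, so miR-194-5p and miR-192-5p do not share a seed although their genes are neighbours.

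The hairpins of both miR-194 genes are shown because they hold the same 5p strand. Capitals mark the mature arms that RefSeq lists.
Mir194-2: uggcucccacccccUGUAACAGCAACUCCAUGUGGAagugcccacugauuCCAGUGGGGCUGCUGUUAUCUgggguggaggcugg
Mir194-1: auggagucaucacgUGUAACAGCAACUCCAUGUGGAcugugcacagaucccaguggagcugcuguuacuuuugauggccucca
The longest run shared by these hairpins was 22 bases, from position 15 of each, and it was miR-194-5p itself. The 3p arm differed: RefSeq lists miR-194-3p for Mir194-2, and the closest stretch of the Mir194-1 hairpin, ccaguggagcugcuguuacuu, had 3 mismatches to it (G8A, U19C and C20U, counted from 1 at the 5′ end of miR-194-3p, its base first). A read of the 5p strand therefore cannot be placed on chromosome 1 or chromosome 13, and the sources used here do not give how the authors' counting divided such reads. For this reason Mir194-1 and Mir194-2 are uncertain as separate features, and their sum is also given. No member had a whole number of reads in any of the 12 libraries. That includes Mir192, so its level and its ratio to miR-194 also hold reads that were divided in counting, to an extent that was not measured.

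The libraries held 2863572 to 3418568 reads on listed features, as recovered from the deposited values, and 258 to 273 features above 0. FPKM here means fragments per kilobase of hairpin, scaled to 1000000 reads on listed features, so a level is relative to the other listed microRNAs. To describe the tissue, 16 of 17 names on a list of other hepatocyte microRNAs matched listed features, of which 14 were tested. The 16 together took 28.0 to 29.8% of reads. The only listed endothelial marker, Mir126a, took 0.00024 to 0.00080%. That is near the floor of detection, so it does not measure how much endothelium the tissue held. The 6 leukocyte markers together took 1.75 to 2.15% in CAF, 2.59 to 2.97% in DEX, 1.96 to 2.40% in CAF+DEX and 2.63 to 2.99% in Control. The 3 erythroid markers together took 0.060 to 0.114% in CAF, 0.091 to 0.122% in DEX, 0.085 to 0.094% in CAF+DEX and 0.101 to 0.121% in Control. Of 6 biliary and other epithelial markers 3 were tested, and these took 0.067 to 0.144%. Liver pieces are bulk tissue, in which fewer cells of a type and less RNA per cell cannot be told apart.

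MicroRNAs that are not listed have no share or rank here, and Mir122 was not among the 12 most abundant listed features. Among the listed features, the only ones that could be ranked, Mir192 was the most abundant in all 12 libraries, by reads and by FPKM. It took 16.3, 15.9 and 15.0% of reads in the CAF libraries, 14.3, 14.8 and 14.3% in the DEX libraries and 14.5, 14.1 and 16.1% in the CAF+DEX libraries, against 16.4, 15.5 and 15.1% in the Control libraries. All 3 DEX libraries lay below all 3 Control libraries, while the CAF and CAF+DEX ranges each overlapped Control. Of all 293 tested features, 12 (4.10%) lay as fully below Control in DEX, and 20 lay as fully above. The level averaged 1431689 ± 63592 FPKM in CAF, 1315938 ± 28961 in DEX, 1354295 ± 97809 in CAF+DEX and 1423299 ± 57717 in Control (SD, n = 3 each). From the lowest library to the highest, the share differed 1.16-fold. The coefficient of variation within a group was 2.20 to 7.22%, against 0.140 to 0.147% from counting alone if each read is taken as an independent molecule.

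**Figure D1:**
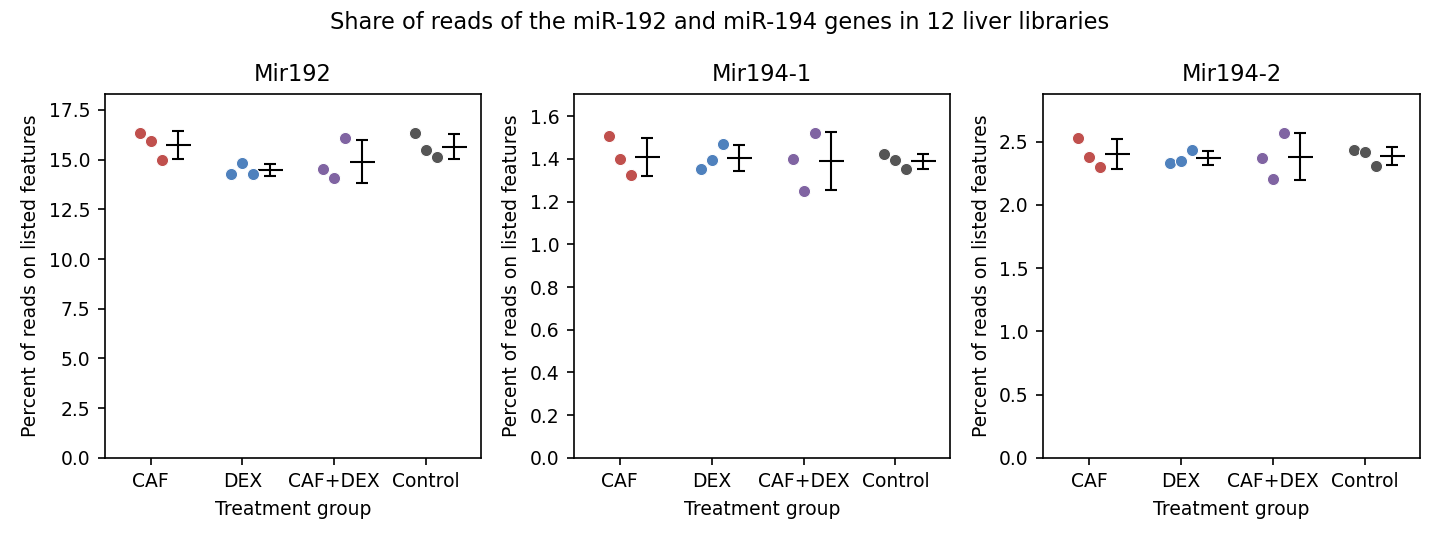
Percent of reads on listed features (vertical axes, from 0) taken by Mir192, Mir194-1 and Mir194-2 in each of 12 libraries, by treatment group; points are libraries and black bars are the mean ± SD of 3 libraries. The 3 DEX points for Mir192, 14.3 to 14.8%, lie below the Control points, 15.1 to 16.4%, as did 4.10% of all tested features, and the groups overlap for both miR-194 genes.

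Mir194-2, the neighbour of Mir192, took 2.53, 2.38 and 2.30% of reads in CAF, 2.33, 2.35 and 2.43% in DEX and 2.37, 2.20 and 2.57% in CAF+DEX, against 2.44, 2.42 and 2.31% in Control. Its groups overlapped in all 5 pairwise comparisons. The level averaged 282721 ± 13723 FPKM in CAF, 278878 ± 6571 in DEX, 280278 ± 21846 in CAF+DEX and 280955 ± 8059 in Control (SD, n = 3 each). By FPKM it ranked 10 or 11 in every library.

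Mir194-1, the copy on chromosome 13, took 1.51, 1.40 and 1.33% of reads in CAF, 1.35, 1.39 and 1.47% in DEX and 1.40, 1.25 and 1.52% in CAF+DEX, against 1.42, 1.39 and 1.35% in Control. Here too the groups overlapped in all 5 pairwise comparisons. The level averaged 169821 ± 10874 FPKM in CAF, 169302 ± 7177 in DEX, 167660 ± 16476 in CAF+DEX and 167337 ± 4335 in Control (SD, n = 3 each). The order by FPKM was Mir192, Mir194-2, Mir194-1 in all 12 libraries, with no overlap between these genes. Together the 3 genes took 17.5 to 20.4% of the reads of a library, and both miR-194 genes together 3.45 to 4.10%.

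Each group was compared with Control, and CAF+DEX with each single drug, to ask how liver microRNAs differ after each drug and after both. None of the 3 members passed an adjusted p of 0.05 in any of these comparisons (limma, Benjamini-Hochberg over 293 features, 3 libraries per group). Few other features passed either. The share called was 0.683% in CAF against Control, where Mir146a and Mir142, microRNAs of blood cell lineages, fell; 38 features had an unadjusted p under 0.05, and limma-voom called 2. It was 0% in DEX against Control, with 13 features under 0.05, and 0% in CAF+DEX against Control, with 30. For CAF+DEX it was 0% against CAF, with 15, and 0% against DEX, with 23. Limma-voom called 0 in these 4 comparisons. The comparisons with Control share the same 3 Control libraries, so they are not independent of each other.

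For Mir192 in DEX against Control the log2 fold change was -0.11 (SE 0.061, 95% interval -0.25 to 0.020, adjusted p = 0.841 by limma with Benjamini-Hochberg). An exact two-sided permutation test of these 3 against 3 libraries gave p = 0.1, the smallest that this design allows. For Mir192 in CAF against Control the interval ran from -0.12 to 0.14, and in CAF+DEX against Control from -0.21 to 0.060. Against the single drugs, the Mir192 interval for CAF+DEX ran from -0.21 to 0.051 beside CAF and from -0.094 to 0.17 beside DEX.

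Both miR-194 genes had fold changes closer to 0 in DEX against Control. Mir194-1 had a log2 fold change of 0.016 (95% interval -0.14 to 0.17) and Mir194-2 one of -0.011 (95% interval -0.15 to 0.12). Summed into a single feature, miR-194 had an interval of -0.14 to 0.14 in that comparison, -0.13 to 0.16 in CAF against Control and -0.15 to 0.14 in CAF+DEX against Control. The lowest adjusted p of either miR-194 gene over all 8 contrasts was 0.957 (limma, Benjamini-Hochberg).

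**Figure D2:**
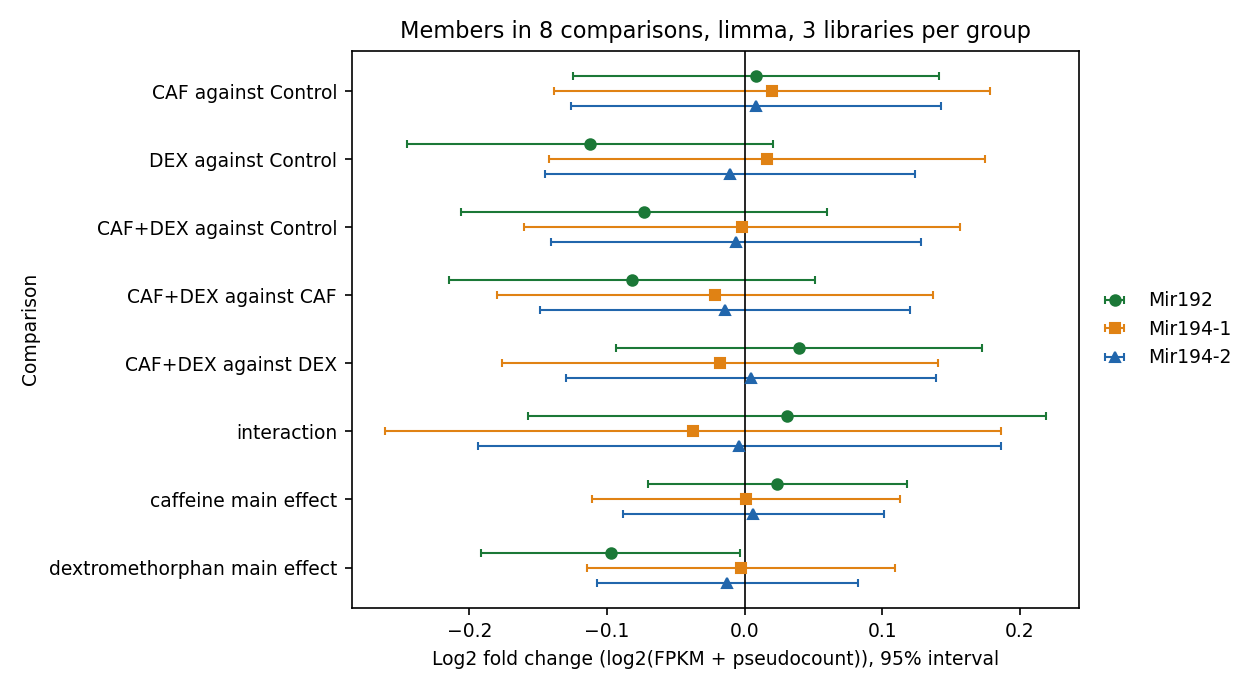
Log2 fold change of the 3 genes (horizontal axis, log2(FPKM + pseudocount) scale) in 8 comparisons; points are limma estimates and bars their 95% intervals, from 3 libraries per group. Every interval holds 0 except that of Mir192 for the dextromethorphan main effect, which ends at -0.0031.

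The factorial layout also allows all 6 libraries with a drug to be set against all 6 without it. With dextromethorphan, Mir192 ranged from 14.1% of reads through a median of 14.4% to 16.1%; without it, the lowest, median and highest were 15.0, 15.7 and 16.4%. Of the 6 libraries with dextromethorphan, 5 lay below all 6 without it. The exception was CAF+DEX library 5, at 16.1%. Of the 293 features 2 (0.683%), Mir192 included, were at least that far separated towards lower values, and 4 towards higher ones. The main effect on Mir192 was -0.10 on the log2 scale (SE 0.043, 95% interval -0.19 to -0.0031), with an unadjusted limma p of 0.0440 and an adjusted p of 0.640 (Benjamini-Hochberg over 293 features). Among all features this was the 20th smallest p, and 22 had an unadjusted p under 0.05. The exact permutation test within levels of caffeine gave p = 0.035, or 0.735 after Benjamini-Hochberg adjustment over the 21 tests of the members. The lower Mir192 share with dextromethorphan therefore did not hold after correction, and the share of features called was 0% by limma, with 0 by limma-voom.

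For the caffeine main effect, Mir192 had a log2 value of 0.024 (95% interval -0.070 to 0.12, adjusted p = 0.910 by limma with Benjamini-Hochberg). The share of features called was 0.683%, again Mir146a and Mir142, with 42 features under an unadjusted p of 0.05. For the interaction, which asks whether the response to both drugs departs from the sum of the single responses, Mir192 had a log2 value of 0.031 (95% interval -0.16 to 0.22). The share called was 0%, with 16 features under an unadjusted p of 0.05 and 0 called by limma-voom. A limma F test over the 4 groups gave adjusted p-values of 0.652 for Mir192 and 0.991 for each miR-194 gene, and called 1 of 293 features.

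A ratio of 2 members within a library does not depend on how that library was scaled. The reads of both miR-194 genes over those of Mir192 were 0.247, 0.237 and 0.242 in CAF, 0.258, 0.252 and 0.273 in DEX and 0.260, 0.246 and 0.254 in CAF+DEX, against 0.236, 0.246 and 0.242 in Control. All 3 DEX libraries lay above all 3 Control libraries. The same held for 31.1% of the 132 other features averaging at least 100 reads when each was divided by Mir192, so this separation is not particular to miR-194. The group means were 0.242 ± 0.0051 in CAF, 0.261 ± 0.011 in DEX, 0.253 ± 0.0071 in CAF+DEX and 0.241 ± 0.0054 in Control (SD, n = 3 each).

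The ratio was 0.257 ± 0.0092 in the 6 libraries with dextromethorphan and 0.242 ± 0.0047 in the 6 without (SD), and 5 of the 6 with the drug lay above all 6 without. Of the 132 other features divided by Mir192, 18 (13.6%) were at least that far separated upwards. The difference was 0.088 on the log2 scale (SE 0.024), which is 1.06-fold. An exact two-sided permutation test within levels of caffeine gave p = 0.01, and 0.14 after Benjamini-Hochberg adjustment over the 14 ratio tests, so the ratio missed the threshold after correction. Among the libraries with caffeine, CAF+DEX against CAF differed by 0.065 and overlapped (exact permutation p = 0.2). Among those without, DEX against Control differed by 0.11 and did not overlap (exact permutation p = 0.1, the smallest possible with 3 against 3). Whether these differences differ from each other was not tested. For caffeine the main effect on the ratio was -0.019 (exact permutation p = 0.485, adjusted 0.721).

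The ratio of each miR-194 gene on its own to Mir192 was also taken. Mir194-2 over Mir192, the neighbours on chromosome 1, ran from 0.157 to 0.170 in libraries with dextromethorphan and from 0.149 to 0.156 in those without, so all 6 lay above all 6 (log2 difference 0.085, exact permutation p = 0.005, the smallest that the design allows). Of the 132 other features divided by Mir192, 2 (1.52%) were as fully separated upwards. Mir194-1 over Mir192 ran from 0.089 to 0.103 with dextromethorphan and from 0.087 to 0.092 without (log2 difference 0.095, exact permutation p = 0.01). Benjamini-Hochberg adjustment over the 49 tests of the alternative ratios gave 0.163 for both. Put in the place of the summed ratio among the 14 ratio tests, Mir194-2 had 0.07 and Mir194-1 had 0.14. Over reads other than those of the 3 members, the dextromethorphan main effect on Mir192 was -0.12 (exact permutation p = 0.04, adjusted 0.49). On summed miR-194 it was -0.027 (exact permutation p = 0.6, adjusted 0.98). The ratios to Mir192 are therefore not separate from the lower Mir192 share given above. Of the cell type markers, the summed leukocyte share was 2.59 to 2.97% in DEX against 2.63 to 2.99% in Control, and the stellate and smooth muscle share 2.63 to 2.73% in DEX against 2.40 to 2.71% in Control. Their part in the ratio was not tested.

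**Figure D3:**
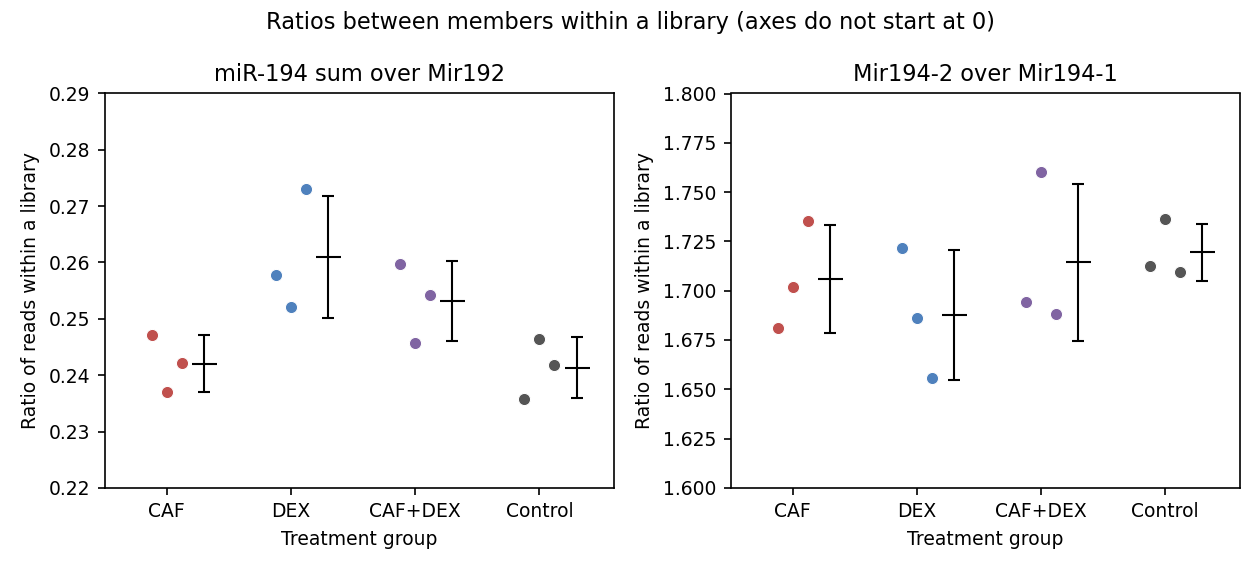
Ratios of reads within a library, both miR-194 genes over Mir192 on the left and Mir194-2 over Mir194-1 on the right, by treatment group; points are libraries, black bars are the mean ± SD of 3 libraries, and the vertical axes do not start at 0. On the left the DEX libraries, 0.252 to 0.273, lie above the Control libraries, 0.236 to 0.246. The same held for 31.1% of 132 other features divided by Mir192. On the right the groups overlap.

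The counted reads of the miR-194 copies kept to a narrow ratio. How far the division of shared 5p reads fixes it was not measured. Mir194-2 over Mir194-1 was 1.71 ± 0.027 in CAF, 1.69 ± 0.033 in DEX, 1.71 ± 0.040 in CAF+DEX and 1.72 ± 0.015 in Control (SD, n = 3 each). Over all 12 libraries the ratio ran from 1.66 to 1.76. Its main effects were 0.0056 for caffeine (exact permutation p = 0.715) and -0.010 for dextromethorphan (exact permutation p = 0.515). Because the copies share reads, these tests cannot decide whether the copies responded alike. Mir194-2 held 28710 to 35247 more reads than Mir194-1 in a library, which was 39.6 to 43.2% of its reads. Since the shared 5p strand cannot be placed, this excess is a property of the counted reads and not a measured difference in transcription between the chromosomes.

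Across the 12 libraries, Mir192 and summed miR-194 were high and low together. On log2 values Pearson's r was 0.668 (permutation p = 0.0163) and Spearman's rho 0.629 (permutation p = 0.0321), with adjusted values of 0.0245 and 0.0482 over the 3 relations computed. Without CAF library 1 and Control library 1, the libraries farthest from the median of Mir192, r was 0.586 (permutation p = 0.0729), so the relation rests in part on those libraries. It also missed the threshold without CAF library 1 alone (r = 0.592, permutation p = 0.0506) or without CAF+DEX library 2 alone (r = 0.561, permutation p = 0.0729). With values centred on their group means r was 0.845. With each library rescaled to reads other than those of the 3 members, r was 0.779.

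By gene, r with Mir192 was 0.706 for the neighbour Mir194-2 (permutation p = 0.0094, adjusted 0.0245) and 0.608 for the distant Mir194-1 (permutation p = 0.0353, adjusted 0.0353). Spearman's rho was 0.692 for Mir194-2 (permutation p = 0.0157, adjusted 0.0471) and 0.573 for Mir194-1 (permutation p = 0.0552, adjusted 0.0552). Without the same 2 libraries r was 0.628 for Mir194-2 and 0.521 for Mir194-1. The difference between these correlations was not tested, since the genes share reads.

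**Figure D4:**
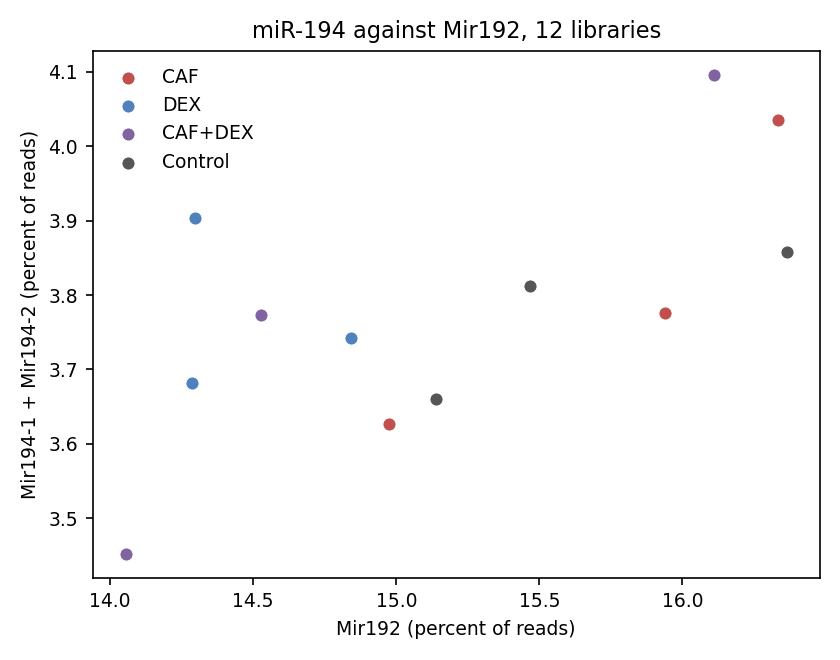
Summed Mir194-1 and Mir194-2 (vertical axis, percent of reads) against Mir192 (horizontal axis, percent of reads) in 12 libraries coloured by treatment group; neither axis starts at 0. High and low values go together (r = 0.668 on log2 values), and DEX library 4 stands off, with 3.90% miR-194 at 14.3% Mir192.

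Among 132 other features averaging at least 100 reads, the profile most like that of Mir192 over the 12 libraries was Mir301a (r = 0.817), followed by Mir532 (0.711), Mir101a (0.692), Mir28 (0.669) and Mir27b (0.647). Summed miR-194 would stand at place 5 in that order, and the median over the 132 features was -0.032. Those most like summed miR-194 were Mir33 (r = 0.742), Mir532 (0.686), Mir301a (0.639), Mir130a (0.627) and Mir93 (0.557), with a median of -0.014. Mir532 and Mir301a stood in both orders. These are descriptions over 12 points that share library scaling.

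The other hepatocyte microRNAs were described by counts and medians, and the list was not tested as a group. Of the 14 that were tested, 0 were called in any contrast by limma. In DEX against Control 11 were higher and 3 lower, with a median log2 value of 0.047. Over all 293 features 150 were higher, with a median of 0.0039. For the dextromethorphan main effect, 8 were higher and 6 lower, with a median of 0.0045 beside 0.0041 over all features, of which 150 were higher. For the caffeine main effect the median was 0.011 beside -0.0078. Mir802, which is known to affect glucose handling in mouse liver, had the smallest p there, with a log2 value of 0.28 (SE 0.068, adjusted p = 0.0526 by limma with Benjamini-Hochberg). Next came Mir455 at -0.27, Mir103a2 at -0.083 and Mir103a1 at -0.082, the last pair being copies that share reads and are uncertain as separate features.

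The microRNAs linked to p53, apart from the members, were also described, since miR-192 and miR-194 are among its targets in human cells. Of 7 names, 6 were tested and 0 were called in any contrast by limma. The median log2 value was -0.20 in CAF against Control, 0.019 in DEX against Control and -0.22 in CAF+DEX against Control, beside 0.0023, 0.0039 and -0.0089 over all features. In the caffeine main effect 4 of the 6 were lower, with values of -0.46 for Mir34c, -0.17 for Mir16, -0.62 for Mir34b and -0.28 for Mir34a, and the lowest adjusted p of the list was 0.110 (limma, Benjamini-Hochberg). Mir34b and Mir34c averaged 20.0 and 60.1 reads, so counting limits them. For the caffeine main effect 141 of all 293 features were above 0. In that contrast the values of all 6 leukocyte markers were below 0, with a median of -0.36. Mir146a (-0.47, adjusted p = 0.00312) and Mir142 (-0.45, adjusted p = 0.0163) passed in limma. All 3 erythroid markers were below 0 as well, at -0.40 for Mir144, -0.39 for rno-mir-486 and -0.33 for Mir451a, with a lowest adjusted p of 0.221 in limma. The part of these markers in the p53-linked values was not tested. Mir192 and both miR-194 genes had caffeine values of 0.024, 0.00086 for Mir194-1 and 0.0064 for Mir194-2, beside a median of -0.0078 over all features.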

How the data were processed

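Small RNA libraries from 12 liver samples were made, per the labels' protocols, with a QIAseq kit that adds molecular indices at reverse transcription. The sources used here do not give whether the indices were collapsed. The submitters' processing notes name cutadapt 3.7, STAR 2.7.11b, featureCounts of Subread 2.0.6 and build rn7, without parameters. The authors deposited FPKM, and FPKM times length in kilobases summed to 1000000 per library. Reads were recovered as multiples of 0.01 read, and 50.5 to 58.3% of values above 0 were whole within 0.001 read. Reads need not be independent molecules. Column headers number the libraries and identify the group of a column but not which sample title it is.

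Features above 0 in at least 3 of 12 libraries were tested on log2(FPKM + 3.8), the pseudocount being the 10th percentile of nonzero values, in 1 limma-trend model with 4 group means (limma 3.58.1, R 4.3.3). Benjamini-Hochberg adjustment ran over 293 features, with a threshold of 0.05. Fold changes on this scale understate those of rare features. Ratios and single values were tested by exact permutation over libraries, and correlations with 100000 permutations (Python 3.11.15, scipy 1.17.1). The fit was tested on simulated data. The members and lists were chosen with earlier results of these data known. Named besides the members were features past the threshold, the 5 most correlated with Mir192 and with summed miR-194, and up to 4 per list with the smallest p for caffeine. Mir107 stands on both the hepatocyte and p53 lists. Same-numbered libraries did not deviate together (11 pairs, r -0.13 to 0.10), so the numbers were not used as a block. Alternatives were other pseudocounts, filters and scalings, limma-voom, fits of the compared libraries, a replicate block, and each library left out.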

Additional observations from a re-analysis of the deposited data

How the results depend on the processing

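No member passed an adjusted p of 0.05 in any of 519 alternative limma values over the 8 contrasts (lowest 0.284, Mir192 for the dextromethorphan main effect without CAF+DEX library 5). In 449 of them the sign was as reported and in 70 it was the other one, with values of -0.14 to 0.093. For the dextromethorphan main effect, Mir192 stayed below 0 under each alternative with a value, -0.13 to -0.077 with a library left out. Quantile normalization gives no Mir192 comparison, since it sets the top feature of every library to the same value. The miR-194 to Mir192 ratio for that effect was 0.072 to 0.10 with a library left out (adjusted exact p 0.07 to 0.28). The ratio of Mir194-1 over Mir215 was not run. The 3 libraries per group and, for rare features, counting limit the precision.

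Values that changed sign were near 0 and not past the threshold. With the replicate block they were -0.037 for Mir192 in CAF against Control, -0.014 for Mir192 for caffeine, 0.032 for Mir194-1 and 0.016 for Mir194-2 in CAF+DEX against Control, 0.019 for Mir194-2 in DEX against Control, -0.0033 for Mir194-2 in CAF+DEX against DEX, and 0.013 for Mir194-1 and 0.0024 for Mir194-2 for dextromethorphan. With median-ratio scaling they were 0.0082 for Mir194-1 and 0.0037 for Mir194-2 in CAF+DEX against Control, 0.0054 for Mir194-1 in CAF+DEX against DEX and 0.0024 for the Mir194-2 interaction. With quantile normalization they were 0.014 for Mir194-1 in CAF+DEX against Control and 0.041 for the Mir194-2 interaction. With scaling to reads of other features they were -0.0047 for Mir194-1 in DEX against Control and 0.0015 for the Mir194-2 interaction. The cause was not tested.

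With a library left out, Mir192 ran from -0.018 to 0.044 in CAF against Control, -0.018 to 0.080 in CAF+DEX against DEX, -0.027 to 0.072 for the interaction and -0.0051 to 0.044 for caffeine. Mir194-1 ran from -0.029 to 0.063 for CAF, -0.017 to 0.043 for DEX, -0.069 to 0.073 for CAF+DEX, each against Control, -0.089 to 0.053 in CAF+DEX against CAF, -0.086 to 0.057 in CAF+DEX against DEX, -0.11 to 0.037 for the interaction, -0.033 to 0.038 for caffeine and -0.036 to 0.035 for dextromethorphan. Mir194-2 ran from -0.029 to 0.039, -0.034 to 0.0039, -0.063 to 0.049, -0.071 to 0.041, -0.052 to 0.060, -0.061 to 0.052, -0.022 to 0.034 and -0.041 to 0.015 in the same order. The miR-194 to Mir192 ratio ran from -0.013 to 0.020 in CAF against Control. Mir194-2 over Mir194-1 ran from -0.024 to 0.0065 in CAF+DEX against Control, -0.012 to 0.019 in CAF+DEX against CAF and -0.0040 to 0.013 for caffeine. The correlation ran from 0.561 to 0.807.

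Counts over all features moved more. In CAF against Control, 2 features were called as reported, 4 with quantile normalization, 0 with the 6 compared libraries, 0 with the replicate block and 0 to 10 with a library left out: 10 without CAF library 1, 5 without Control library 4, 4 without CAF+DEX library 1, 1 without DEX library 2, and 0 without CAF library 2, CAF library 5, Control library 1 or Control library 3. For caffeine, 2 were called as reported, 5 with a pseudocount 10 times larger, 0 without a filter, 10 among features above 0 in all 12 libraries, 5 with quantile normalization, 9 with scaling to other reads, 11 with median-ratio scaling, 4 with limma-voom, 0 with the replicate block and 1 to 10 with a library left out: 10 without CAF library 1, 8 without CAF+DEX library 1, 6 without CAF+DEX library 2, and 1 without CAF library 2 or Control library 3. In DEX against Control the count was 1 with the replicate block and 0 to 1 with a library left out. In CAF+DEX against Control it was 2 with the larger pseudocount, 2 without a filter and 1 with quantile normalization, and in CAF+DEX against DEX 1 with quantile normalization and 0 to 1 with a library left out. The interaction had 0 to 1 with a library left out. Same-numbered libraries did not deviate together, which with 3 libraries per group does not settle whether samples were paired. The block changed no call of a member.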

Other observations

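The features least like the members over the 12 libraries were chosen after their values were seen. Mirlet7a1, which averaged 2.77% of reads, had a Pearson r of -0.935 with Mir192. Mir98 had r = -0.865, and Mir26a-2 had r = -0.824. With each library rescaled to reads other than those of the 3 members, these values were -0.913, -0.838 and -0.761, beside a median of 0.098 over the 132 features compared. For summed miR-194 the lowest values were -0.797 for Mir98, -0.755 for Mirlet7f2 and -0.734 for Mir148b, and -0.836, -0.688 and -0.492 after that rescaling. The points share library scaling and depth, and copies of let-7 share reads, so these values are a description and were not tested.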
